A study of Mus musculus with 6 samples.

Results

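The immunity-related GTPases, or IRG family, were followed here through 6 genes (Iigp1, Irgm1, Irgm2, Igtp, Tgtp1 and Tgtp2), taken by Entrez gene ID from the 27179 genes of the deposited count table. All 6 were found and all 6 were tested. RNA-seq read counts came from CD8-negative dendritic cells sorted from the spleens of C57BL/6 mice, with 3 libraries from CpG-pretreated mice (numbered 2, 3 and 4) and 3 from untreated mice (also 2, 3 and 4). CpG DNA is sensed by Toll-like receptor 9; the title of the series speaks of paralysed cells after a systemic inflammatory syndrome. How much CpG was given, of which sequence, when and by which route, and whether each library is 1 mouse or a pool, was not found in the labels. The design text counts the libraries of a group as biological replicates. The 3 CpG-pretreated libraries held 7989245 to 8111975 counted reads and the 3 untreated ones 7855500 to 8228140, and levels are given as CPM, a gene's reads scaled to the size of its library. The family was chosen because Iigp1 was known to stand among the largest rises in this same contrast. The differences of the 6 genes between the groups are therefore given as a description, with no test.

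IRG proteins are interferon-inducible GTPases that defend mouse cells against pathogens living in vacuoles, such as Toxoplasma gondii and Chlamydia. The family has a pair of subclasses, named after the residue in the first nucleotide-binding motif. The GKS proteins (the products of Iigp1, Tgtp1 and Tgtp2, also called Irga6 and Irgb6) are effectors that assemble on the vacuole membrane and disrupt it. The GMS proteins (the products of Irgm1, Irgm2 and Igtp, the last also called Irgm3) reside on the cell's own membranes and hold the effectors in the inactive state, so that own membranes are spared. Their genes are classical targets of interferon signalling.

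The difference between the subclasses can be read in the coding sequence of the first nucleotide-binding motif, given for the members on chromosome 11 (GENCODE transcripts, GRCm38), with the codon that separates the subclasses in capitals.
Irgm1: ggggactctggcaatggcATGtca
Irgm2: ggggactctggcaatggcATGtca
Igtp: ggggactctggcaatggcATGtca
Tgtp1: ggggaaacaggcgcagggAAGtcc
Tgtp2: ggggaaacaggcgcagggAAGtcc
The 3 GMS genes carry the methionine codon ATG there and were identical over the stretch, and Tgtp1 and Tgtp2 carry the lysine codon AAG. The motif covers codons 83 to 90 of Irgm1 and Irgm2, 91 to 98 of Igtp and 63 to 70 of both Tgtp genes. Over whole coding sequences the GMS genes were 63.9% to 68.4% identical to one another, and Tgtp1 and Tgtp2 were 99.7% identical, with 4 mismatches.

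Promoter sequences were compared because both kinds of interferon-response element can be searched for in them. Of the 6 members, 5 had an entry in the RefSeq promoter table (GRCm38.p6, 250 bases before to 50 after the start). Each of the 5 held the core of an interferon-stimulated response element (GAAA, any 2 bases and GAAA again, on either strand), as did 3.44% of all 32851 promoters of the table. The core of a gamma-activated site (TTCNNNGAA, which reads the same on both strands) was found in Irgm2, Igtp, Tgtp1 and Tgtp2 but not in the Irgm1 window, and in 8.30% of all promoters; 0.454% of all promoters held both. The stretches are shown because they share an arrangement, with both cores in capitals.
Igtp, plus strand, chr11:58199501-58199541: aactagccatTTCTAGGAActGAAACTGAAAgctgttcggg
Irgm2, plus strand, chr11:58214892-58214932: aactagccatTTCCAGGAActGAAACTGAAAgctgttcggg
Tgtp1, minus strand, chr11:48992304-48992344: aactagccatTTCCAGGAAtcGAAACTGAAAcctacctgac
Tgtp2, minus strand, chr11:49064263-49064303: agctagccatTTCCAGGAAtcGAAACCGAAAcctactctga
Gm12185, minus strand, chr11:48927238-48927278: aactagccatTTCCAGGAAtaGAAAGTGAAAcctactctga
Irgm1, minus strand, chr11:48871425-48871460: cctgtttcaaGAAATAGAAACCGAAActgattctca
In Igtp, Irgm2, Tgtp1 and Tgtp2 the first core came before the second with the same short gap, beginning 45, 75, 88 and 81 bases before the start. Gm12185, an IRG-related gene outside the members, held the same arrangement 86 bases before its start. Of the other IRG-related promoters in the table, Gm12250 held both cores in another arrangement and 9930111J21Rik1 held a response-element core alone. Ifi47, Gm5431, 9930111J21Rik2 and Irgq held neither core in this window. In Irgm1 a pair of overlapping response-element cores began 30 and 24 bases before it. These are matches of letters, and binding was not measured.

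After CpG pretreatment all 6 IRG genes stood higher than in untreated cells in every library, by 1.58-fold for Irgm2 to 78.0-fold for Iigp1. Each CpG-pretreated library lay above each untreated one in 6 of 6 members, where the same was true of 9.20% of the 11602 genes tested, and 18.7% did not overlap in either direction. The median log2 fold change of the members was 1.20, and that of all genes tested was -0.005. Of the 6, the effector Iigp1 had the largest difference and the regulators Irgm1 and Irgm2 had the smallest. Tests across all genes (edgeR's quasi-likelihood test, adjusted p under 0.05) called 0.974% of genes, among them 1 of the 6 members, Iigp1. With the replicate number as a block, 8.52% of genes were called and 5 of the 6 members, with Igtp left out. In these bulk samples more cells of a type and more RNA per cell cannot be told apart. Because the members were chosen from this contrast, nothing is read from these counts. Without CpG-pretreated replicate 4 all 6 members were called by edgeR, as were 386 of 11856 genes over the whole table. Without any 1 of the other 5 libraries 0 were called. All 6 were at an unadjusted p under 0.05 in each of those fits, as were 1065 to 1680 of 11751 to 11824 genes over the whole table. Those fits called only 0 to 34 genes over the whole table. Since the members were chosen from this contrast, nothing is read from these fits either.

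**Figure D1:**
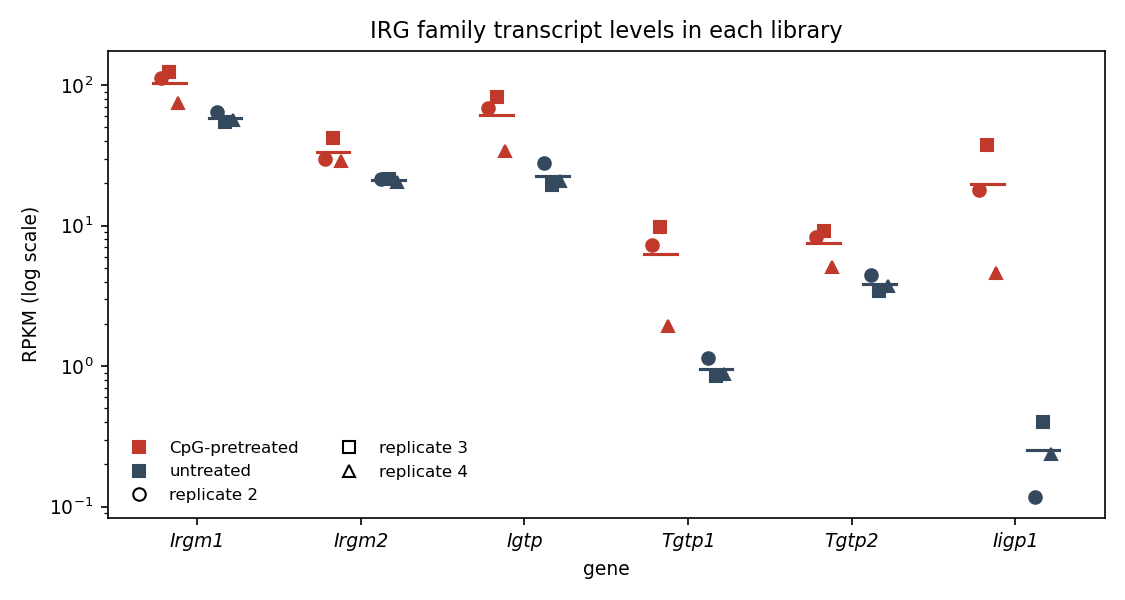
RPKM (CPM per kilobase of gene length, log axis) of the 6 IRG genes in each library, with CpG-pretreated in red on the left and untreated in blue on the right of each gene, symbols for replicate numbers and horizontal lines for group means. In every gene the red points lie above the blue ones and the triangle, CpG-pretreated replicate 4, is the lowest red point, at 4.63 RPKM for Iigp1 against 17.8 and 37.3 in the other CpG-pretreated libraries.

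Among the regulators, Irgm1 (Entrez 15944; GRCm38 chromosome 11, 48865245 to 48871420) was the most abundant IRG gene, and in mice its product is needed for resistance to many intracellular bacteria. It had 249, 276 and 166 CPM in the CpG-pretreated libraries 2, 3 and 4, set against 144, 122 and 125 CPM in the untreated libraries 2, 3 and 4. The groups did not overlap, but the lowest CpG-pretreated library stood only 1.16-fold above the highest untreated one. Its log2 fold change was 0.83 (SE 0.18).

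Igtp (Entrez 16145; chromosome 11, 58199556 to 58207592), whose product is required for control of Toxoplasma gondii in mice, showed the largest difference of the 3 regulators. It had 139, 166 and 68.3 CPM in the CpG-pretreated libraries 2, 3 and 4, set against 56.0, 39.5 and 41.8 CPM in the untreated ones. CpG-pretreated libraries 2 and 3 were well apart from the untreated ones, and library 4 was nearer to them than to its own group. The log2 fold change was 1.44 (SE 0.30).

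Irgm2 (Entrez 54396; chromosome 11, 58214977 to 58222783), the third regulator, had 105, 148 and 101 CPM across the CpG-pretreated libraries, against 75.8, 75.8 and 72.5 CPM in the untreated ones. The coefficient of variation was 22.1% among CpG-pretreated libraries, against 2.53% among untreated ones, which lay close to one another. The log2 fold change was 0.66 (SE 0.15). In GENCODE 1 Irgm2 transcript begins within the first exon of Igtp, and the genes share 162 exonic bases there. Their RefSeq positions do not overlap, and how the authors' counting treated such reads is not known. Of the 50-base windows of the longest coding transcript, 12.3% of those of Igtp occurred in Irgm2 and 6.29% of those of Irgm2 in Igtp.

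Among the effectors, Iigp1 (Entrez 60440; chromosome 18, 60373616 to 60392634) was near zero in untreated cells. It had 55.7, 117 and 14.5 CPM (454, 920 and 115 reads) in the CpG-pretreated libraries 2, 3 and 4, set against 0.369, 1.25 and 0.738 CPM (3, 10 and 6 reads) in the untreated ones. All 3 CpG-pretreated libraries were far above the untreated ones, with 11.6-fold between the nearest pair, while they differed among themselves by more than in any other member (coefficient of variation 82.5%). The log2 fold change was 6.29 (SE 0.92). The ratio of the summed counts was 79.3, with a 95% counting interval of 50.6 to 132 that covers counting error only. Iigp1 passed the filter on low counts through the CpG-pretreated group, since 1 of 3 untreated libraries reached the filter's 1.24 CPM, so a gene with its untreated level had to differ to be tested.

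Tgtp1 (Entrez 21822; chromosome 11, 48985329 to 48992246) had 20.6, 27.3 and 5.42 CPM in the CpG-pretreated libraries 2, 3 and 4, set against 3.2, 2.38 and 2.46 CPM in the untreated ones, a log2 fold change of 2.72 (SE 0.55). Tgtp2 (Entrez 100039796; chromosome 11, 49057196 to 49064212) had 23.5, 25.6 and 14.4 CPM across the CpG-pretreated libraries, against 12.5, 9.63 and 10.4 CPM in the untreated ones, a log2 fold change of 0.96 (SE 0.23). Both were higher in CpG-pretreated cells, Tgtp1 by more, and CpG-pretreated library 4 was again the lowest of its group. Of the 50-base windows of the Tgtp1 transcript, 89.4% occur in Tgtp2, so that the assignment of reads to one copy or the other is uncertain. Reads given to Tgtp1 made up 46.7%, 51.6% and 27.4% of those of both copies in CpG-pretreated libraries 2, 3 and 4, against 20.3%, 19.8% and 19.0% in the untreated ones. The exact 95% binomial interval of CpG-pretreated library 4 was 20.6% to 35.1% and overlapped those of the untreated libraries, which spanned 12% to 29.2%; those of CpG-pretreated libraries 2 and 3 did not, with lower bounds of 41.4% and 46.6%. These intervals cover counting error only, not the spread between libraries. Summed over both copies the level was 44.2, 52.9 and 19.8 CPM across the CpG-pretreated libraries, against 15.7, 12 and 12.9 CPM in the untreated ones, and the log2 fold change of the sum was 1.52.

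Compared per length, the family kept a broad order. In CpG-pretreated cells mean levels were 103 RPKM for Irgm1, 61.6 for Igtp, 33.5 for Irgm2, 19.9 for Iigp1, 7.52 for Tgtp2 and 6.32 for Tgtp1, and each gene's range overlapped that of the next one in the order. In untreated cells they were 58.4 RPKM for Irgm1, 22.6 for Igtp, 21.3 for Irgm2, 3.86 for Tgtp2, 0.953 for Tgtp1 and 0.251 for Iigp1, and only Igtp and Irgm2 overlapped as neighbours. By these means Iigp1 stood above both Tgtp genes in CpG-pretreated cells and last in untreated cells, but in CpG-pretreated library 4 it was below Tgtp2, with 4.63 against 5.10 RPKM. It supplied 3.12% to 12.3% of the summed RPKM of the 6 genes in CpG-pretreated libraries and 0.0986% to 0.398% in the untreated ones, while Irgm1 supplied 40.7% to 50.2% in the CpG-pretreated libraries and 54.0% to 54.8% in the untreated ones. In every library the regulators Irgm1, Igtp and Irgm2 were the largest part of the family's transcripts, and Iigp1 came closest to Irgm2 in CpG-pretreated library 3, with 12.3% against 13.8%.

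**Figure D2:**
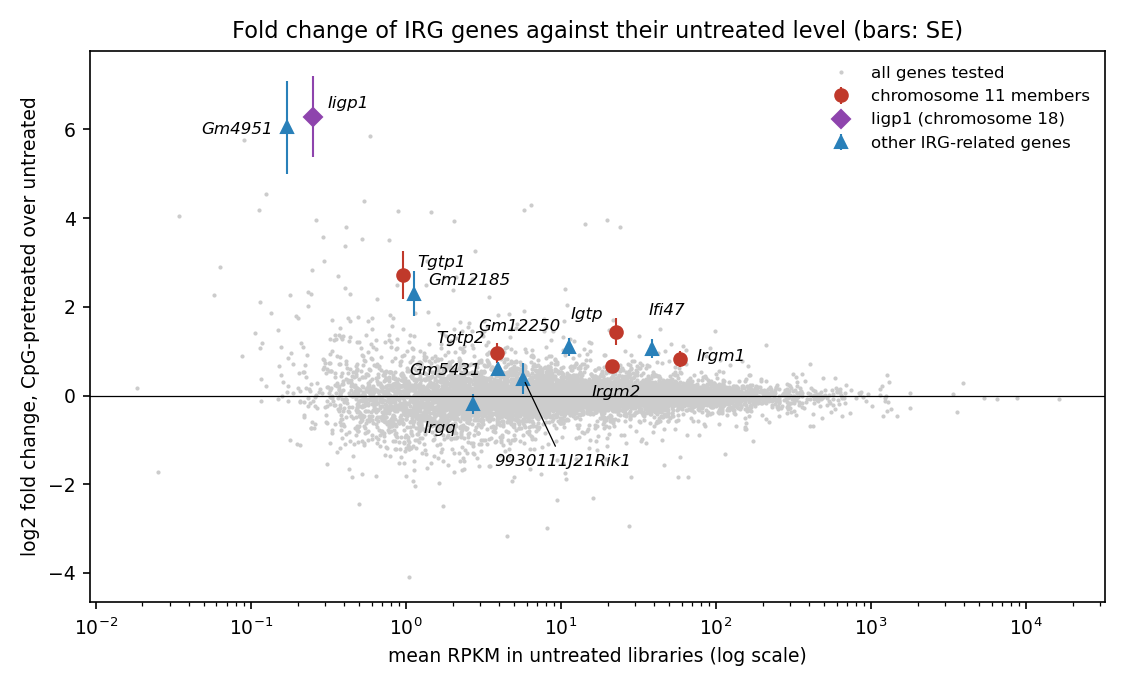
Log2 fold change of CpG-pretreated over untreated (vertical axis, bars are SE) against mean RPKM in untreated libraries (log axis) for IRG members (red circles and a purple diamond), other IRG-related genes (blue triangles) and all genes tested (grey). Iigp1 and its neighbour Gm4951 lie at the top left, with log2 fold changes of 6.29 and 6.05 and untreated levels of 0.251 and 0.171 RPKM, and Irgm1 lies at the right, with 0.83 and 58.4 RPKM.

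IRG-related genes outside the 6 members were looked at next. Of 11 listed genes 10 were in the table and 6 were tested, 5 of them with a log2 fold change above 0. Gm4951 and Gm12250, 2 of the 6, were called higher, and none was called lower. Gm4951 reached the filter's 1.24 CPM in 3 CpG-pretreated and 0 untreated libraries, so it was tested only because the CpG-pretreated group was high, and its call adds no support; Gm12250 is the other call. The median log2 fold change of those tested was 0.84. With the block 4 were called higher, where 4.73% of all genes were, against 0.474% without it. By edgeR none was called without any 1 of the libraries other than CpG-pretreated replicate 4 (4 to 6 at an unadjusted p under 0.05), and 4 were called without that library. Over the whole table the former fits called 0 to 34 genes and the latter 386. The former had 1065 to 1680 genes at an unadjusted p under 0.05. With the block and 1 number left out, 0, 2 and 7 were called without numbers 2, 3 and 4 (3, 5 and 7 at an unadjusted p under 0.05). The same fits called 513, 482 and 1594 genes over the whole table, with 1772, 1918 and 2806 at an unadjusted p under 0.05.

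On chromosome 18, Gm4951 (60212004 to 60248440), Gm4841 (60268301 to 60273267) and F830016B08Rik (60288739 to 60303823) neighbour Iigp1 and were, like it, near zero in untreated cells. Gm4951 had 34.0, 54.5 and 4.66 CPM in the CpG-pretreated libraries 2, 3 and 4, set against 0.123, 0.5 and 0.738 CPM in the untreated ones (log2 fold change 6.05, SE 1.05, edgeR adjusted p = 0.0444). Gm4841 had 38, 62 and 4 reads in CpG-pretreated libraries, against 0, 1 and 0 in the untreated ones, a ratio of 105 with a 95% counting interval of 18.5 to 4200, again for counting error only. F830016B08Rik had 11, 59 and 6 reads in CpG-pretreated libraries, against 0 in each untreated library, and was at least 25.6-fold higher, against a floor of 3 counts over the untreated group. Gm4841 and F830016B08Rik did not pass the filter on low counts and were not tested. In all 4 genes of the cluster CpG-pretreated library 3 was the highest and library 4 the lowest. Of the windows of Iigp1, 2.83% occur in Gm4951.

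On chromosome 11 the genes outside the members had measurable untreated levels, apart from 9930111J21Rik2. That gene had 6, 5 and 5 reads in CpG-pretreated libraries, against 5, 5 and 3 in the untreated ones, and was not tested. Gm12250, known as Irgb10, whose product acts on bacterial membranes, had 64.8, 83.4 and 46.7 CPM in the CpG-pretreated libraries 2, 3 and 4, set against 31.7, 27.9 and 32.1 CPM in the untreated ones (log2 fold change 1.09, SE 0.20, edgeR adjusted p = 0.0491). Of the calls of Gm4951 and Gm12250, 1 was lost with library size scaling, with upper quartile scaling and without a filter. With the block Gm5431 was called higher (log2 fold change 0.60 in both edgeR fits, adjusted p = 0.0147 blocked and 0.127 unblocked). So was 9930111J21Rik1 (0.42, adjusted p = 0.0470 blocked, and 0.38, adjusted p = 0.768 unblocked). Gm12185 had 2.30 (SE 0.51, adjusted p = 0.0828, and 0.203 with the block). Ifi47, the IRG gene also called Irgd, was not in the list and was added after its identity was seen in the annotation; it averaged 135 ± 40.7 CPM in CpG-pretreated and 64.9 ± 7.91 CPM in untreated cells (SD, n = 3 each; log2 fold change 1.06, edgeR adjusted p = 0.0703, and 0.0207 with the block). Irgq, an IRG-like gene on chromosome 7, had a log2 difference of -0.19 (adjusted p = 0.837), with 10.2 to 17.1 CPM in CpG-pretreated and 14.1 to 19.9 CPM in untreated cells. Irgc1, also on chromosome 7, had 11, 5 and 4 reads in CpG-pretreated libraries, against 8, 9 and 6 in the untreated ones.

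**Figure D3:**
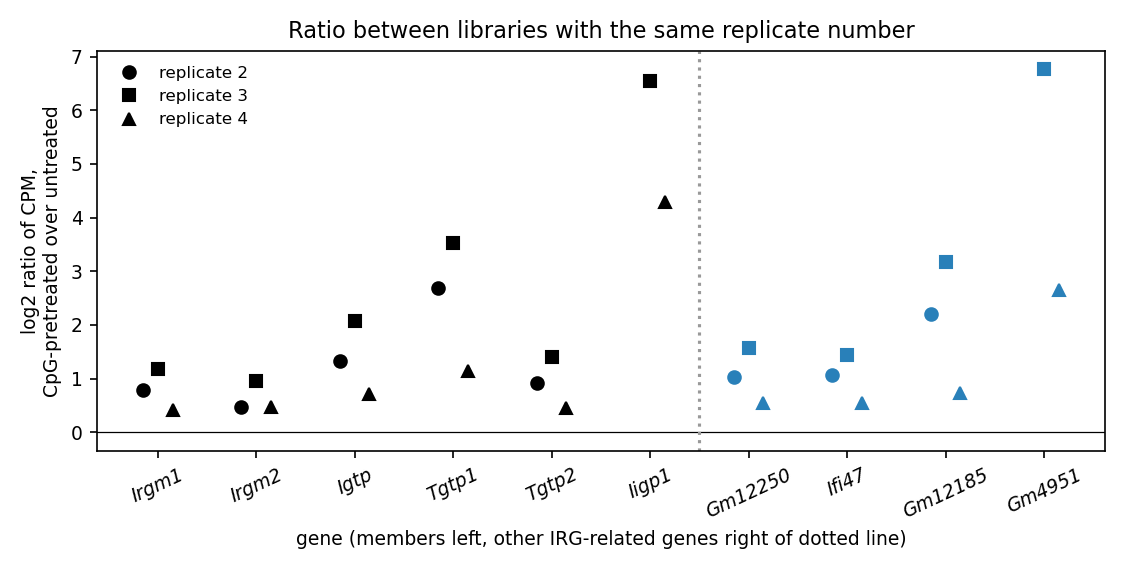
Log2 ratio of CPM between the CpG-pretreated and the untreated library with the same replicate number, for the 6 members (black) and 4 further IRG genes (blue), where the untreated library had at least 4 reads. All ratios drawn lie above 0, and of those drawn replicate 3 is the highest in each of these 10 genes. Replicate 2 is not drawn for Iigp1 and Gm4951. For Iigp1 replicate 3 is at 6.54 against 4.30 for replicate 4.

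The difference between same-numbered libraries was largest for number 3 in the 5 members on chromosome 11. It was smallest for number 4 in Irgm1, Igtp, Tgtp1 and Tgtp2, and equal for numbers 2 and 4 in Irgm2 (log2 ratio 0.47). For Iigp1 the log2 ratio was 6.54 for number 3 and 4.30 for number 4. Number 2 of Iigp1 had 55.7 CPM against 0.369 CPM (3 reads) in the untreated library. Its ratio was not computed, so the numbers were not ranked for Iigp1. For the 5 members on chromosome 11 the median log2 ratio between same-numbered libraries was 0.91 for number 2, 1.41 for number 3 and 0.47 for number 4. CpG-pretreated library 3 was the highest and library 4 the lowest of the group in 6 of 6 members. The members' log2 CPM followed one another closely over the 6 libraries, with Pearson correlations of 0.906 to 0.999 among the 15 pairs, which share libraries, depth and the difference between the groups. Other IRG-related genes not drawn in the plot of ratios went another way. Gm5431 (log2 ratios 0.75, 0.44 and 0.64 for numbers 2, 3 and 4) and 9930111J21Rik1 (0.77, 0.25 and 0.33) were lowest for number 3, and Irgq had -0.47, -0.22 and 0.05.

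Among the 8 genes whose pattern was most like the mean of the family were Rnf115 (Pearson r = 0.996 over 6 libraries), Spon1 (0.996), Ly6a (0.995), Cldnd1 (0.993), Scarb2 (0.991), Klrk1 (0.991) and Oasl2 (0.991), by correlation of log2 CPM among 8942 abundant genes. Of these genes 135, or 1.51%, reached an r of 0.95. Oasl2 is itself interferon-induced. Most like Iigp1 alone were Ifi203 (0.999), Taf6 (0.996), Pak1 (0.995) and Endod1 (0.994). The differences of these genes were not of one size, from a log2 fold change of 0.18 for Scarb2 and Taf6 to 4.29 for Ly6a.

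Interferon signalling genes act upstream of the family. Of 16 tested genes 1 was called higher and none lower without the block. With it 4 were called higher and none lower, where 4.73% of all genes were called higher. The median log2 fold change over the list was 0.12. Irf1, an interferon-gamma induced transcription factor that binds response elements, had 391, 474 and 302 CPM across the CpG-pretreated libraries, against 287, 265 and 252 CPM in the untreated ones (log2 fold change 0.54, adjusted p = 0.175, and 0.00845 with the block). The transcription factor Irf8 had a log2 difference of 0.75 with the block (edgeR adjusted p = 0.0185) and 0.79 without it (0.178). Socs3, a feedback inhibitor, had 0.95 with the block (adjusted p = 0.0437) and 0.98 without it (0.118). Stat2 had 0.29 with the block (adjusted p = 0.0447) and 0.30 without it (0.360). The receptor chain Ifngr1 had -0.26 (adjusted p = 0.433) and the kinase Jak2 0.00 (adjusted p = 0.996). With the block, edgeR called 0 without number 2 and 0 without number 3 (3 and 6 at an unadjusted p under 0.05), and 8 without number 4. Over the whole table these fits called 513, 482 and 1594 genes. Those without numbers 2 and 3 had 1772 and 1918 genes at an unadjusted p under 0.05.

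Transcripts of the interferons themselves were at or near zero. Ifng had 1, 1 and 0 reads in CpG-pretreated libraries 2, 3 and 4, against 0 in each untreated library, and Ifnb1, Ifna4 and Ifnl2 had 0 reads in all 6. Il12b and Il18, cytokines that drive interferon-gamma production, stood at 6.80 to 15.5 and 9.13 to 14.5 CPM in CpG-pretreated cells, against 3.88 to 5.41 and 18.9 to 24.7 CPM in untreated cells. With the block Il12b was called higher and Il18 lower (edgeR adjusted p = 0.0464 and 0.000843), and without it neither was called (0.178 and 0.0750).

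Guanylate-binding proteins, a further family of interferon-inducible GTPases that act with IRG proteins on vacuoles, did not pass the test. Of 11 genes 7 were tested and 0 were called by edgeR with or without the block, although the median log2 fold change was 1.18. By edgeR without the block, 4 of the 7 were at an unadjusted p under 0.05, as were 1485 of all 11602 genes tested. With the block 2 of the 7 were, as were 2511 of the 11602. DESeq2 called 3 of the 7 and 428 of the 11602. Gbp2 had 160, 288 and 69.8 CPM in the CpG-pretreated libraries 2, 3 and 4, set against 50.3, 58.9 and 50 CPM in the untreated ones. Gbp3 had 70.5, 82.9 and 31.4 CPM across the CpG-pretreated libraries, against 21.6, 20.6 and 21.3 CPM in the untreated ones. Library 4 was the lowest of its group in both, as among the IRG genes. The abundant members Gbp8 and Gbp9 had log2 fold changes of 0.02 (adjusted p = 0.976) and -0.24 (adjusted p = 0.632). Without CpG-pretreated replicate 4, 5 guanylate-binding genes were called by edgeR, as were 386 of 11856 genes over the whole table. IRG and guanylate-binding genes were not tested against each other.

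Genes for the machinery that conjugates LC3 and GABARAP, which directs IRG proteins to vacuoles in mouse cells, showed no called difference. Of 12 tested genes 0 were called by edgeR, by DESeq2 or with the block, and 0 had an unadjusted p under 0.05, with a median log2 fold change of -0.01. Atg5 averaged 43.9 ± 4.18 CPM in CpG-pretreated and 43.5 ± 4.44 CPM in untreated cells (SD, n = 3 each), and Atg3 and Gabarap had log2 fold changes of 0.11 (SE 0.10, edgeR adjusted p = 0.770) and 0.09 (SE 0.11, adjusted p = 0.831). A missed threshold does not show equal levels. A list of ubiquitin ligases and adaptors at vacuoles, which also held Rabgap1l, had 8 tested genes. Of the 8, 0 were called by edgeR or DESeq2, with a median log2 fold change of 0.01. By edgeR 1 was at an unadjusted p under 0.05, as were 1485 of 11602 genes over the whole table. With the block Rabgap1l alone was called, lower by 0.37 on the log2 scale (edgeR adjusted p = 0.0396, and 0.263 without the block). In that fit 3.78% of all genes were called lower. Sqstm1, the adaptor p62, had -0.05 (adjusted p = 0.934).

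The markers of the labelled cell type were present, with Itgax, Flt3, Zbtb46, Sirpa and MHC class II genes abundant in all libraries. The 10 core markers summed to 30500 to 35900 CPM across the CpG-pretreated libraries, against 33600 to 39400 CPM in the untreated ones. Most of these sums came from Cd74 and H2-Ab1. Dtx1 had 373, 437 and 509 CPM across the CpG-pretreated libraries, against 559, 638 and 619 CPM in the untreated ones. With the block Dtx1 was called lower (edgeR adjusted p = 0.00226, and 0.146 without it). Irf4 had 124, 128 and 174 CPM, against 175, 190 and 177 CPM, and was not called (0.0515 with the block and 0.338 without it). In the other core markers the groups overlapped. Some markers of other cell types also differed between the groups, in both directions. Of 10 erythroid markers 8 were in the table and 6 were tested. All 6 had a log2 fold change above 0, with 4 called higher, and 2 with the block. The erythroid markers summed to 1090, 1040 and 251 CPM in the CpG-pretreated libraries 2, 3 and 4. Their sums were 42.0, 113 and 43.8 CPM in the untreated ones, with Hba-a1 at 0 in all. Of 8 cDC1 markers all 8 were in the table, 0 were called by edgeR and 3 were called higher with the block. The cDC1 markers summed to 259, 283 and 199 CPM across the CpG-pretreated libraries, against 223, 208 and 203 CPM in the untreated ones. Among them Itgae had 6.01, 9.64 and 0.756 CPM across the CpG-pretreated libraries, against 1.11, 1.25 and 0.983 CPM in the untreated ones. Xcr1 had 9.20, 14.6 and 4.66 CPM across the CpG-pretreated libraries, against 3.81, 4.63 and 3.32 CPM in the untreated ones, and Tlr3 had 23.3, 32.6 and 19.3 CPM, against 10.4, 18.5 and 14.1 CPM in the untreated ones. These are the 3 cDC1 markers called higher with the block. In each of them CpG-pretreated library 3 was the highest and library 4 the lowest of its group. The other cDC1 markers were not called and went both ways. Their log2 fold changes were -0.27 for Batf3, -0.40 for Cadm1, 0.01 for Clec9a, 0.53 for Cd8a and 0.56 for Naaa. Red pulp macrophage markers were lower, with 0 of 10 at a log2 fold change above 0. Of the 10, 3 were called lower, and 7 with the block. Their sums were 335, 395 and 452 CPM across the CpG-pretreated libraries, against 479, 601 and 608 CPM in the untreated ones. B cell markers summed to 42.0 to 55.9 CPM in CpG-pretreated and 43.0 to 59.7 CPM in untreated libraries, and the T cell genes Cd3e, Cd3d and Cd3g had at most 11 reads in any library. Cd4, the 1 gene tested of 9 T and NK cell markers, had 279, 287 and 444 CPM across the CpG-pretreated libraries. Its untreated levels were 476, 467 and 492 CPM, and it was called lower with the block (edgeR adjusted p = 0.0215, and 0.251 without it). Of 8 tested monocyte and neutrophil markers 0 were called, and 1, Mpo, was called higher with the block. Of 4 tested plasmacytoid dendritic cell markers 0 were called in either fit. The part of these other cells in the IRG differences was not tested.

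**Figure D4:**
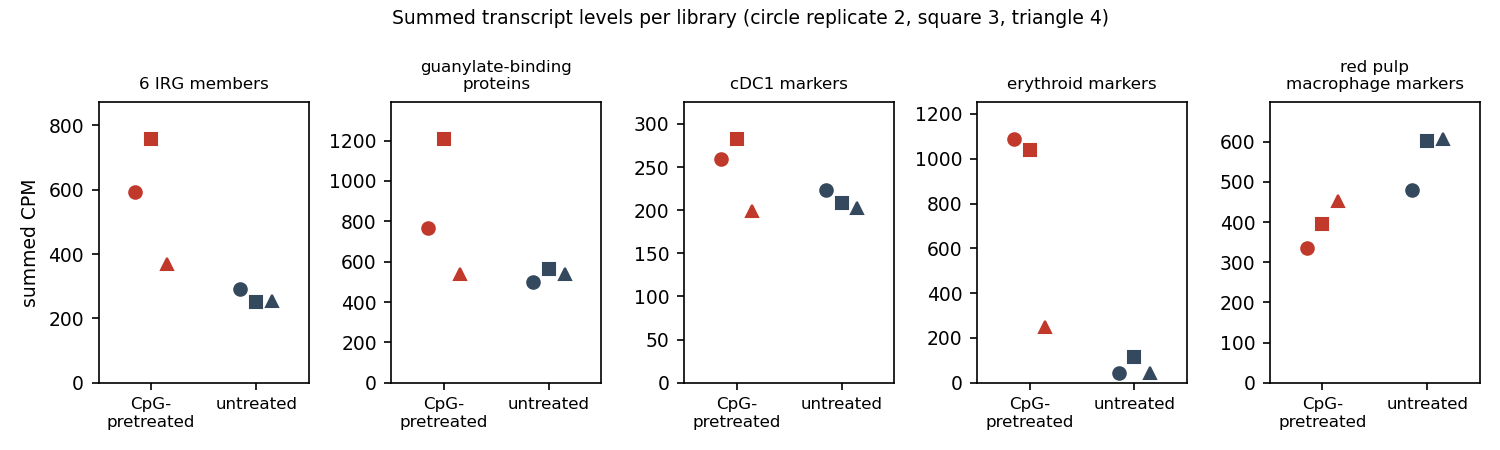
Summed CPM per library for the 6 IRG members, guanylate-binding proteins and 3 marker lists, each panel with its own axis from 0 and CpG-pretreated (red) left of untreated (blue). CpG-pretreated replicate 4 (red triangle) is the lowest of its group for the IRG members, at 369 CPM against 593 and 759, and for erythroid markers, at 251 CPM against 1090 and 1040.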

How the data were processed

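The authors deposited raw read counts, in whole numbers, for each Entrez gene. Per the submitters' processing notes the authors used CASAVA and featureCounts with the mm10 build. Aligner, strand setting and handling of multi-mapping reads were not found there. The deposited table also gives each gene's length, used here for RPKM. Counts in the 6 per-sample files equalled those of the series table. Total counts were 7855500 to 8228140 per library, and 1 count was 0.123 to 0.127 CPM. Replicates of a group differed by more than sampling noise (chi-square per degree of freedom 3.17 to 19.7).

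Counts were fitted in R 4.3.3 with edgeR 4.0.16 (filterByExpr with a minimum count of 10 and total of 15, TMM, robust quasi-likelihood F test, Benjamini-Hochberg adjustment over 11602 genes, call at an adjusted p under 0.05). DESeq2 1.42.0 was an alternative. Standard errors are the log2 fold change divided by the root of F. The fit was tested on simulated data. CPM uses TMM-normalized library sizes. Symbols and positions came from RefSeq GRCm38.p6 (25275 IDs matched, 1904 did not), and sequences from RefSeq and GENCODE M21, both of the build mm10 names. Coding sequences were taken as the longest open reading frame.

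Replicate numbers 2, 3 and 4 occur in both groups. Deviations from group means correlated at 0.479, 0.250 and 0.311 between same-numbered libraries, each over 0.1. Same numbers were therefore treated as pairs in the alternative fit with the replicate block, though no label states pairing. The main fit did not pair them, and log2 fold changes and standard errors are from it unless said otherwise. The SE of Iigp1 was 0.92 without and 0.26 with the block, and that of Igtp 0.30 and 0.34. Blocked values are given where they change a call.

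The members, lists and tests were chosen with earlier results of these data known. All members are named. Of other lists, called genes (up to 5, the most abundant) and the 2 most abundant others are named as a rule, and genes most like the family came from the 8 with the highest correlation of all genes averaging a log2 CPM of 3 or more; further genes (Ifi47, Gbp2, Gbp3, Atg5 and the low-count genes) were named after their values were seen. 1 gene of these lists is not reported here.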

Additional observations from a re-analysis of the deposited data

How the results depend on the processing

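Members' log2 fold changes stayed above 0 in every setting run, with medians of 0.87 to 1.46 against 1.20, and Tgtp1 moved to 1.52 once both copies were summed. Counts of calls were less stable. With the replicate block 988 genes over the whole table were called against 113, with 5 members against 1 and 4 other IRG-related genes against 2. Interferon signalling genes called were 4 against 1, and genes of the vacuole list 1, Rabgap1l, against 0. DESeq2 called 428 genes, 6 members, 3 guanylate-binding genes and 4 signalling genes. Library size only and upper quartile scaling each called 1 other IRG-related gene, as did the fit with no filter, which called 189 genes in all. Leaving out 1 library gave 0 to 386 genes, 0 to 6 members, 0 to 4 other IRG-related genes, 0 to 5 guanylate-binding genes and 0 to 5 signalling genes. Leaving out 1 number with the block kept gave 482 to 1594 genes, 2 to 6 members and 0 to 7 other IRG-related genes. It also gave 0 to 6 guanylate-binding genes, 0 to 8 signalling genes and 0 to 1 genes of the vacuole list. The cause was not tested. The low counts of Iigp1 and its neighbours in untreated cells limit the precision of their folds.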
